A study of Mus musculus with 4 samples.

Results

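The comparison set both stem cell fractions of mouse bone marrow against both later fractions and listed the genes that lay at least 2-fold apart between the sides on every array. A gene counted as higher when its LT-HSC and ST-HSC arrays both lay above its progenitor and Lin+ arrays, with at least 2-fold between the lower stem array and the higher later array. The reverse rule gave the genes lower in both stem fractions. Of 20284 named genes on the array, 11921 were well above background on both arrays of at least 1 side, and 820 of these (6.88%) met the rule, 452 as higher and 368 as lower. The rule used no earlier gene list, but the same 4 arrays chose the genes and give their values, so the values below describe the genes and support nothing further.

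All 4 fractions came from the bone marrow of female C57BL6 mice aged 8 weeks, with no treatment or altered allele named for any of them. The long-term stem cell fraction (LT-HSC) was sorted as c-Kit-positive, Sca-1-positive and lineage-negative cells without CD34, and short-term stem cells (ST-HSC) by the same antigens with CD34. Progenitors are labelled as c-Kit-positive and lineage-negative, and differentiated cells as lineage-positive (Lin+). The protocol wording for progenitors adds absence of Sca-1 and also names lineage-positive cells, so their exact gate is uncertain; the number of mice behind a fraction is not given in the sources used here. Each fraction was hybridised once to a single-colour Agilent array. The 2 fractions of a side are different cells and not replicates, so replicate spread is unknown for every value and genes carry no p-value. An exact permutation of 2 arrays against 2 could not have gone below 0.333 (two-sided).

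Haematopoietic stem cells sit at the top of blood formation, where LT-HSC can rebuild all blood lineages for life and ST-HSC do so for a limited time. In the mouse both are found among lineage-negative cells that carry c-Kit and Sca-1, and the gain of CD34 marks the loss of long-term capacity. Lineage-committed progenitors divide and pass on to red cells, granulocytes, monocytes, platelets and lymphocytes, which carry the lineage antigens. Procr, an endothelial receptor for protein C, and Hlf, a bZIP transcription factor, are widely used to mark stem cells in this tissue.

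Values are the log2 of the processed signal minus the array's 75th percentile, so 0 is the signal at that percentile. From 40.9% to 45.9% of probes were well above background, and 10624 genes were so on all 4 arrays. A gene that was not well above background on an array was given the higher of its own value and that array's lowest well-above-background value, which lay between -3.47 and -2.87. Where such a value set the low side, the fold is written as at least. Errors after ± are Feature Extraction's error of the spots, carried to the difference between the 2 arrays that set the gap, and they leave out all differences between sorts or mice. The median spot error was 0.146 on the log2 scale on each array. Because these are bulk samples, fewer cells of a type and less RNA per cell cannot be told apart.

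The higher set made up 3.79% of the genes tested and the lower set 3.09%. Higher genes had a median gap of 1.37 on the log2 scale, 83 of them reached 4-fold, 9 reached 8-fold and 0 reached 16-fold. Lower genes went further apart, with a median gap of 1.62, and 138, 56 and 28 of them reached those sizes. The largest gap was 3.84 among higher and 7.61 among lower genes. Over all tested genes the mean of the stem arrays lay 0.04 above that of the later arrays at the median, so the sides were nearly level under this scaling. The split depended on the scaling. The higher share of the 820 genes was 55.1%, against 67.0% when arrays were scaled over probes detected everywhere, 68.2% with median scaling and 78.6% with spike-in scaling, which gave 865 higher and 236 lower genes. Background correction with normexp cut the counts to 235 and 223. No gene of either set met the rule in the opposite direction under any alternative that was run. All of these reused the same arrays, and another fold or fewer arrays could not reverse a member. The absence of reversals is thus no measure of stability. Leaving out an array loosened the rule and raised the counts, to 697 higher and 560 lower genes without LT-HSC, 1220 and 749 without ST-HSC, 2110 and 1621 without progenitors, and 768 and 882 without Lin+. With limma fitted to the 2 arrays a side as if they were replicates, 0 genes passed an adjusted p of 0.05 in either direction, and 761 and 526 had an unadjusted p under 0.05.

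**Figure D1:**
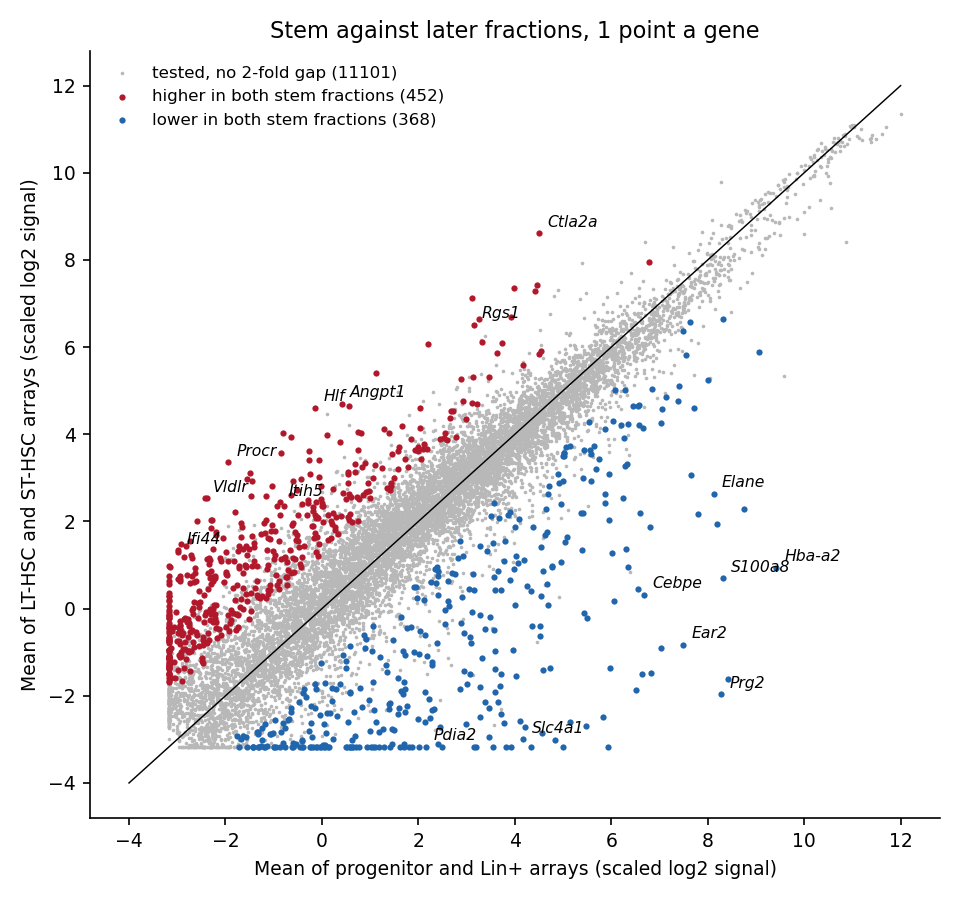
Mean scaled log2 signal of the 2 later arrays (x) against that of the 2 stem arrays (y), 1 point a gene, for the 11921 tested genes; red marks the 452 higher, blue the 368 lower genes and the line equality. The blue points reach farther from the line than the red ones. Distance from the line is the difference between side means and not the gap, for example -10.05 for Hba-a1 and 4.76 for Hlf. The straight edges at the left and bottom are genes at the background floor.

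Many members were dim on the low side. Of the higher genes, 288 were well above background on all 4 arrays, and the other 164 were detected on both stem arrays but not on both later arrays. The 774 genes with that detection pattern gave 21.2% higher members, against 2.71% of the genes detected everywhere. Among lower genes 224 were detected everywhere and 144 had at least 1 dim stem array. Where a gene had several probes, another probe went against the call or gave a gap under 0.50 for 37 of 150 higher and 16 of 92 lower genes.

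Hlf had the largest gap of any higher gene detected on all 4 arrays. Its level was 5.09 (LT-HSC), 4.14 (ST-HSC), 0.94 (progenitors) and -1.23 (Lin+), a gap of 3.20 ± 0.21 or 9.18-fold. Its stem arrays lay above its later ones, as the rule requires of every higher gene, and its level dropped at each step of differentiation. Procr read 4.44, 2.27 and -0.52 in the same order and was not well above background in Lin+ cells. Its gap was 2.79 ± 0.21 or 6.92-fold, and LT-HSC stood 2.17 above ST-HSC. Both markers were thus highest in LT-HSC and lowest in Lin+ cells.

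Kit, Ly6a and Cd34, genes of antigens used in the sorts, did not separate the sides. Kit, the stem cell factor receptor, read 5.63, 5.0, 4.42 and 1.67 from LT-HSC to Lin+, a gap of 0.59, which is less than 2-fold. Ly6a, which encodes Sca-1, read 4.52, 3.12, 2.28 and 4.51, so its Lin+ level equalled that of LT-HSC. Cd34 was 7.34 in the CD34-negative LT-HSC and 8.53 in ST-HSC, against 7.51 (progenitors) and 3.26 (Lin+). The transcript was thus high in the fraction sorted as lacking the protein. Among lineage antigens, Itgam stayed between 4.83 and 5.17 on all arrays and Ptprc between -1.15 and 2.36, both without a gap. Ms4a1 and Cd79a, both of B cells, were detected in Lin+ cells only, at 3.99 and 1.21, and so could not be members. Of T cell antigens, Cd8a was lower by at least 2.44-fold, at the floor in both stem fractions and at -1.18 (progenitors) and -1.65 (Lin+). Cd3e (2.0, 2.02, 2.94 and 3.19), Cd4 (2.39, 2.42, 2.78 and 2.91) and Cd5 (-0.97, -0.68, -1.41 and 1.52) did not pass.

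RefSeq promoters, from 250 bases before to 50 after the start on GRCm38.p6, are shown for both markers and for the leading genes of each direction, as the DNA next to the transcripts with the widest gaps. Capitals mark matches to the motifs listed further on, and sequences run 5′ to 3′ on the gene's strand.
Procr: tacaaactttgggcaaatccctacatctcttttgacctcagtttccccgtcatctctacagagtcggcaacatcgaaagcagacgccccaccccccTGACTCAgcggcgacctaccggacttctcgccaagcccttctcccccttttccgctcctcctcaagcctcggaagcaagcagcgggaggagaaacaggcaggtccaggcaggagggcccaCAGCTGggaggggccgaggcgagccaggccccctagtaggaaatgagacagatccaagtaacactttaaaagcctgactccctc
Hlf: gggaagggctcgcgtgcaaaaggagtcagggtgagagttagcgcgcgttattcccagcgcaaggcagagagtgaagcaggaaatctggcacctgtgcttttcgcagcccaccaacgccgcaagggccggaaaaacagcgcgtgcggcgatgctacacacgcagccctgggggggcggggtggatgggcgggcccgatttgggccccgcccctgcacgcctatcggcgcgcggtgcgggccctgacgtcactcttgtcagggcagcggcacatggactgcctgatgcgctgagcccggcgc
Itih5: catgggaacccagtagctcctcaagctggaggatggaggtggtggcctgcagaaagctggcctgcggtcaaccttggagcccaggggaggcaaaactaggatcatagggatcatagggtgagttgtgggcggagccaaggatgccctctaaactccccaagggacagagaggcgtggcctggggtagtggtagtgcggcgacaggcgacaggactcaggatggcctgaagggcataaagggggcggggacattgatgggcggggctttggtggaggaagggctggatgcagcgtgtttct
Hba-a2: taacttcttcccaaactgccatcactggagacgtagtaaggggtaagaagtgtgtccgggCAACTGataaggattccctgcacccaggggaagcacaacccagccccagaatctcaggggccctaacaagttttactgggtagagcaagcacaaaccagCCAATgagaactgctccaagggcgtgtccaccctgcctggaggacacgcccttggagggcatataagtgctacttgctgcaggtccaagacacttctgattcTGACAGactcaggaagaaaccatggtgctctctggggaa
On GRCm38.p6 these windows are chr2:155750967-155751266 on the plus strand for Procr, chr11:90390868-90391167 on the minus strand for Hlf, chr2:10153293-10153592 on the plus strand for Itih5 and chr11:32296242-32296541 on the plus strand for Hba-a2. The Procr promoter held 1 AP-1 match, spelled TGACTCA. It also held 1 E-box, whose letters here are CAGCTG. The window of Hba-a2 held a MYB match with the letters CAACTG, a MEIS match whose spelling follows further on, and the NF-Y box, which reads CCAAT. Neither Hlf nor Itih5 had a match among the 14 motifs, which says only that these letters are not in the window. The ratio of observed to expected CpG was 0.89 for Hlf, 0.53 for Procr, 0.37 for Itih5 and 0.19 for Hba-a2.

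After Hlf, the measured gaps of the higher set were led by secreted and surface proteins. Itih5, an inter-alpha-trypsin inhibitor heavy chain that binds hyaluronan, read 2.52, 2.36, -0.97 and -0.78, a gap of 3.14 ± 0.21 or 8.81-fold. It was even within each side, unlike Hlf. Robo4, an endothelial guidance receptor used to mark stem cells, read 4.60, 3.44, 0.57 and -2.18 (7.31-fold). Gas6, the ligand of the Tyro3, Axl and Mer receptors, read 2.28, 0.96, -1.89 and -2.21 (7.21-fold). Angpt1, the ligand of the Tie2 receptor, read 4.73 and 4.67 in the stem fractions and 2.0 and -1.17 in the later ones (6.4-fold).

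Rgs1, a brake on G protein signalling, read 6.57, 6.45, 3.82 and 2.48 (6.22-fold). Slc16a11, of the monocarboxylate transporter family, was higher in ST-HSC (4.47) than in LT-HSC (3.38) and fell away to 0.75 and -2.02 (6.18-fold). Pglyrp2, a peptidoglycan-degrading amidase, had a gap of 6.05-fold, the secreted whey acidic protein family member Wfdc18 of 5.88-fold and the transmembrane protein Plxdc2 of 5.87-fold. Ppp1r9a, at 6.41-fold, was left out of these because its other probe disagreed. For the 10 genes named from Hlf to Plxdc2, the spot error of the gap was 0.20 to 0.25. They were picked for the largest gaps, so gaps above that error were certain from the choice.

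**Figure D2:**
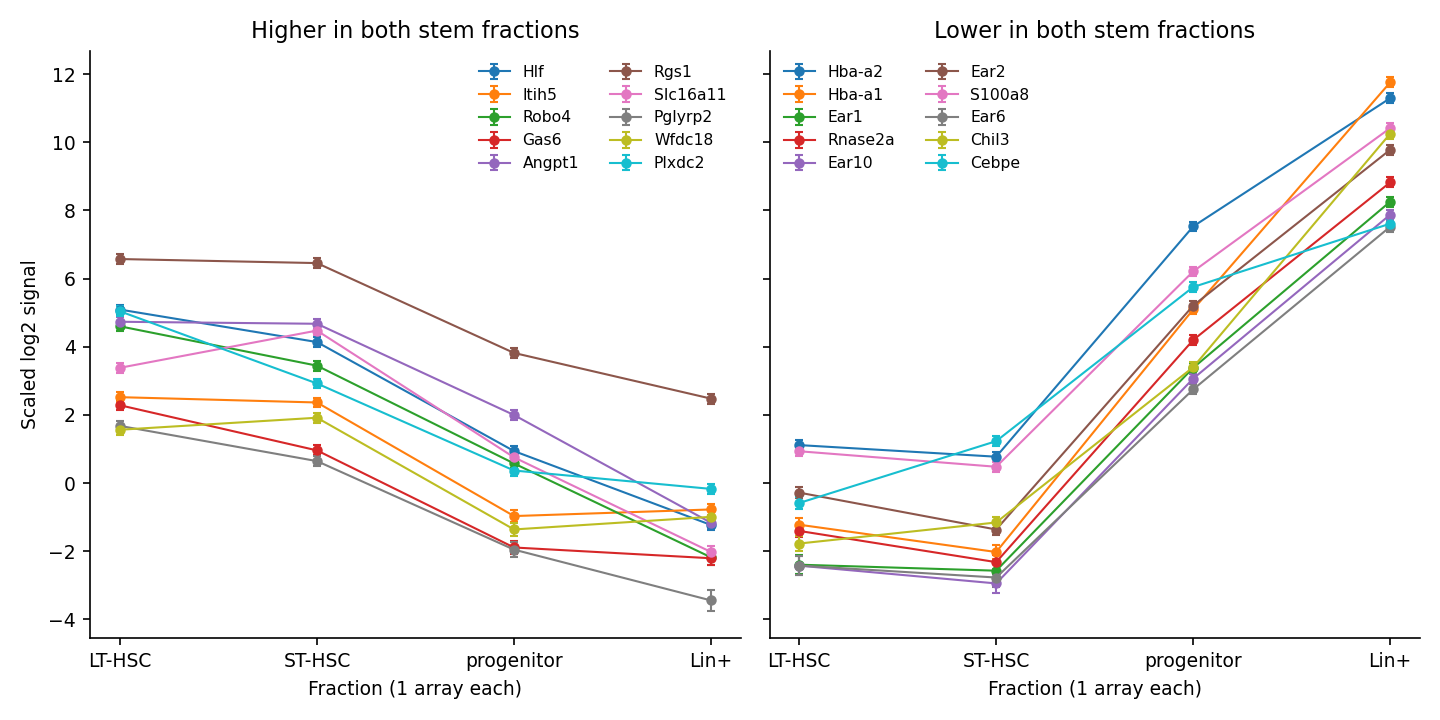
Scaled log2 signal of the 10 genes with the largest measured gaps in each direction among those whose probes did not disagree, by fraction, with 1 array a fraction; bars are the spot error of Feature Extraction and lines only join the values of a gene. On the left Hlf goes from 5.09 in LT-HSC to -1.23 in Lin+ cells, and on the right Hba-a2 goes from 0.77 in ST-HSC to 11.29 in Lin+ cells.

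Some genes were at background on a later array. Ifi44, an interferon-induced gene, read 1.71 in LT-HSC and 0.97 in ST-HSC and was at the floor in progenitors and -3.09 in Lin+ cells, at least 14.3-fold. Hdgfl3 (at least 11.8-fold), Cfc1, a co-receptor of Nodal (at least 11.2-fold), and Clic5, an intracellular chloride channel (at least 10.3-fold), were detected on both stem arrays and on neither later array. Vldlr, a lipoprotein and reelin receptor, read 2.14, 2.94 and -1.40 and was dim in Lin+ cells, 11.6-fold above progenitors. Sgsm1 stood 10.3-fold above progenitors and was also dim in Lin+ cells. Just inside the rule lay Znrd1as at 2.0-fold and Zbtb26, dim in progenitors, at no less than 2.0-fold, and Prkacb and 4930515G01Rik lay just under 2-fold.

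Surface proteins of stem cells held 9 higher and 1 lower gene among 29 tested. Besides Procr, Robo4 and Plxdc2 these were Adgrg1, an adhesion receptor (7.51, 7.06, 6.0 and 2.83), Ctla2a, Emcn, Esam, Jam3 and Cd27. Ctla2a, a cathepsin inhibitor, read 9.01, 8.24, 6.31 and 2.70. Emcn, a sialomucin of endothelium and stem cells, read 0.29 and -0.46 in stem fractions and was not detected in later ones, at least 5.33-fold. The lower gene was Il1rl1, the interleukin-33 receptor, whose other probe went against the call. The list's median difference between side means was 2.02, against 0.04 over all tested genes. This list and those below were drawn up with earlier results of these data known. Their shares and differences may therefore partly follow from the choice and only describe the listed genes.

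Transcription factors of stem cells held 16 higher and 0 lower genes of 45 tested, or 35.6%. Meis1, a homeobox partner of Hox proteins, read 6.53, 5.63, 3.99 and 0.41 (3.12-fold). Erg, an ETS factor needed to maintain stem cells, read 2.39, 2.42, 0.22 and -1.04 (4.49-fold). Nkx2-3 read 3.15, 0.91 and -1.36 and was dim in Lin+ cells (4.82-fold), and Prdm16, a histone methyltransferase family member, read 1.81, -0.46 and -2.42 (3.90-fold). The remaining 11 were Gata3, Hmga2, Ikzf2, Msi2, Mycn, Rora, Sall2, Smad6, Tsc22d1, Zbtb20 and Zfp521. For Msi2, an RNA-binding protein, another probe disagreed.

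Of 12 Hox genes tested, 5 were higher and 0 lower. Hoxa5 read 1.83, -0.34 and -2.44 and was dim in Lin+ cells (4.29-fold). Hoxa3 had a gap of 3.95-fold and Hoxa10 of at least 3.90-fold, while Hoxa9 (0.06, -0.33, -1.38 and -3.20) and Hoxb4 (2.15, 1.21, 0.14 and -1.15) lay just over 2-fold. The remaining Hox genes on the array could not be tested. Of these Hoxb5, used to mark long-term stem cells, was detected in LT-HSC only, at 0.64. Several further stem cell genes were likewise well above background on the LT-HSC array alone and thus outside the comparison: Tek (-1.14), Clec1a, Mecom (-1.68), Fgd5 (-1.59), Tm4sf1 and Hoxc6. Slamf1 was detected in LT-HSC (0.59) and progenitors (-2.32) only.

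Further genes known from stem cells gave 10 higher and 0 lower of 36 tested, with a median difference of 1.65. They included Angpt1, Rgs1 and Vldlr, the interferon-inducible membrane protein Ifitm1 (7.98, 6.87, 5.63 and 3.28), Mmrn1, Dach1, Sytl4, Gimap1 and Gimap6. Sult1a1 and Tgm2, on the same list, were at 3.96 and 5.43 in LT-HSC but at -1.0 and 1.13 in ST-HSC, and did not pass because the ST-HSC array was as low as the later ones.

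Endothelial and junction genes gave 6 higher and 0 lower of 21 tested: Emcn, Erg, Esam, F11r, Jam3 and Robo4, of which 5 are also on a stem cell list. Detection was partial, since of 33 listed genes 24 and 20 were well above background on the stem arrays and 20 and 17 on the later arrays. The summed scaled signal of the detected genes was 390, 320, 264 and 91.5 in that order. Endothelial markers were mixed in the stem fractions. Cdh5, Flt4, Sox17, Sox7, Cav1, Clec14a and Mmrn2 were not detected on either stem array. Cldn5 (-0.68), Sox18 (-1.08), Tek (-1.14) and Gja4 (-2.16) were detected in LT-HSC and not in ST-HSC. Tie1 read 2.20 and 0.59 in the stem fractions and -0.21 in progenitors and was dim in Lin+ cells, and Pecam1 read -1.62, -1.08, -1.16 and -0.98. Whether endothelial cells contributed to the stem sorts was not tested.

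Chromatin regulators gave 5 higher and 0 lower of 41 tested. Smarca2, an ATPase of the SWI/SNF remodelling complex, read 2.44, 1.48, -0.61 and -0.61 (4.25-fold). Hmga2, a chromatin protein of self-renewal, was higher in ST-HSC (1.70) than in LT-HSC (0.56) and read -1.32 in progenitors (3.68-fold). Dnmt3a, a DNA methyltransferase that acts on new sites, read 2.52, 2.60, 1.29 and -0.08 (2.35-fold). Chd3 and Cbx2 passed at 2.30-fold and 2.04-fold. Dnmt3b and Dnmt1 did not separate the sides, with values of 4.84, 5.13, 4.54 and 1.55 for Dnmt3b.

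Signalling genes of the Wnt, Notch and TGF-beta pathways gave 5 higher and 0 lower of 31 tested. The higher count was 11 with spike-in scaling and 2 with normexp. Higher genes among all tested moved the same way, from 452 to 865 and to 235, so the shift was not particular to this list. Hey1, a Notch target, read 2.78 and -0.30 in the stem fractions, was at the floor in progenitors and read -2.58 in Lin+ cells (4.87-fold). Nrarp, another Notch target and a brake on it, read 2.15, 0.06, -1.76 and -1.89 (3.51-fold), and the Wnt receptor Fzd4 read 2.45, 0.38, -1.56 and -1.26 (3.10-fold). The receptors Notch1 and Notch2 themselves did not separate the sides. Smad1, Smad5 and Smad6, mediators and an inhibitor of BMP signals, were 3 higher genes among 7 tested Smad genes, but for Smad1 and Smad5 another probe disagreed.

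Interferon-stimulated genes gave 4 higher and 0 lower of 33 tested. Besides Ifi44 these were the GTPase Gbp2 (3.56, 2.70, 0.65 and 0.74; 3.89-fold), Rtp4 (4.65, 4.42, 2.36 and 2.99; 2.69-fold) and Oasl2 (4.48, 3.82, 1.33 and 2.73; 2.13-fold). Gbp5 also passed at 3.83-fold. Gbp2, Rtp4 and Oasl2 read lower in progenitors than in Lin+ cells. Without the Lin+ array, which loosens the rule for every gene, 19 of the listed genes passed as higher. Of all genes tested in that setting 768 of 12192 (6.30%) did so. Ifit2 (-1.07, -1.0, -2.23 and -1.37) missed the rule because of its Lin+ level, as did Ifit1, which was dim in progenitors and read -1.14 in Lin+ cells against -1.0 and -1.30 in the stem fractions.

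Imprinted genes gave 3 higher of 16 tested. Cdkn1c, the p57 inhibitor of cell division, read 2.80 in LT-HSC and -0.32 in ST-HSC against -1.75 and -1.34 (2.03-fold), so the gap rested on ST-HSC and was far larger for LT-HSC. Sgce and Ppp1r9a, neighbours on chromosome 6, were 4.0-fold and 6.41-fold apart, and another Ppp1r9a probe disagreed. Dlk1 missed the rule with a gap of 0.83. Of G protein-coupled receptors, 4 of 26 were higher: Adgrl4, an endothelial adhesion receptor (2.48, 3.15, 0.02 and -2.09; 5.51-fold), Adora2a, an adenosine receptor (2.17-fold), Adgrg1 and Cysltr2, a leukotriene receptor. The lower gene of that list was Gpr183, an oxysterol receptor, and Cxcr4 (2.29, 2.49, 2.83 and 4.82) did not pass.

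The lists of cell division and basic metabolism gave 0 to 2 members in a direction. Shares were 2.70% higher for mitosis, 5.56% lower for S phase and 3.33% each way for glycolysis. Counts this small cannot be set apart from the shares of all tested genes, 3.79% higher and 3.09% lower. The median difference between side means was -0.84 over the mitosis list and -0.68 over the S-phase list, below the 0.04 of all tested genes. Summed scaled signal of detected genes, from LT-HSC to Lin+, was 207, 688, 663 and 1241 for mitosis. For S phase it was 948, 1589, 2240 and 1522. ST-HSC thus lay above progenitors on the mitosis list and above Lin+ cells on the S-phase list, and LT-HSC was lowest on both. Of 37 genes of mitosis 1 was higher, against the direction of its list, the kinase Aurkb (-0.90, -0.45, -2.36 and -1.99), and Mki67 read 1.51, 4.89, 3.99 and 6.78, with ST-HSC above progenitors. S-phase genes gave 2 lower of 36, Cdc6 and Rrm2, and the other probe of Cdc6 disagreed. Ribosome biogenesis gave 0 of 31 in either direction and the citric acid cycle and oxidative phosphorylation 0 of 27. In glycolysis, the aldolase Aldoc was higher (4.93, 3.19, 0.99 and 0.49; 4.58-fold), the lactate exporter Slc16a3 was lower by 2.06-fold, and the remaining 28 of 30 did not pass. Lymphoid priming genes gave 0 of 16, and Dntt read 5.95, 7.58, 5.37 and 4.07.

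Genes lower in both stem fractions were led by globins and granule proteins. Hba-a2, an alpha-globin, read 1.11 and 0.77 on the stem arrays against 7.53 (progenitors) and 11.29 (Lin+), a gap of 6.42 ± 0.21 or 85.5-fold. Hba-a1 read -1.22, -2.02, 5.09 and 11.76 (79.8-fold); the 2 alpha-globin genes are near-identical and their probes may not tell them apart. The eosinophil-associated ribonucleases Ear1 (54.8-fold), Ear2, Ear10 (both 44.9-fold), Ear6 (36-fold) and Rnase2a (48.6-fold) followed, and as members of a closely related cluster they are equally uncertain as separate genes. S100a8, a calcium-binding alarmin of neutrophils, read 0.93, 0.48, 6.21 and 10.42 (38.8-fold). Chil3, a chitinase-like protein, had a gap of 23.5-fold, and Cebpe, the factor that drives late granulocyte maturation, read -0.59, 1.23, 5.75 and 7.61 (23-fold).

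Dim stem arrays set the other extreme. Prg2, the eosinophil major basic protein, was not detected in LT-HSC, read -0.98 in ST-HSC and reached 6.63 and 9.91, 195-fold above ST-HSC. Wfdc21 was detected on neither stem array, with 3.54 and 8.32 in the later ones, at least 89.5-fold. Prss34, a mast cell and basophil protease, was 69.5-fold lower, the eosinophil peroxidase Epx at least 67.1-fold, Prg3 at least 48.5-fold and the erythroid claudin Cldn13 39.2-fold. Just inside the rule lay Xdh and Cdc6 at 2.01-fold, and just outside Mfsd14b and Ccin.

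Erythroid genes gave 19 lower and 0 higher of 31 tested, with a median difference of -4.34. They held the adult beta-globin Hbb-bs, at the floor in both stem fractions, 0.19 in progenitors and 9.81 in Lin+ cells, and Rhd, a Rhesus protein, at 0.40, the floor, 5.54 and 7.72 (35.5-fold). The erythroid factor Klf1 read 0.29, -2.55, 3.10 and 3.55 (6.98-fold) and the membrane anion exchanger Slc4a1 was lower by 5.17-fold. Erythropoietin receptor, Epor, read 2.82, -0.68, 4.84 and 5.08 (4.06-fold), with LT-HSC well above ST-HSC. Gata1, the central erythroid factor, read 4.83, 2.69, 6.15 and 5.75 and missed the rule with a gap of 0.92. Detection was broad in the later fractions, with 31 and 34 of 35 genes, against 24 in LT-HSC and 22 in ST-HSC, and the summed scaled signal was 499, 233, 1298 and 13813.

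Haem synthesis and iron handling gave 12 lower and 0 higher of 19 tested. Slc40a1, the iron exporter ferroportin, was 10.6-fold lower, the coproporphyrinogen oxidase Cpox (2.67, 2.12, 4.41 and 5.51) was 3.34-fold lower, and the mitochondrial transporter Abcb10 (2.41, 2.15, 3.78 and 5.53) was 2.59-fold lower. Alas1, the housekeeping form of the first enzyme, read 4.27, 5.45, 7.65 and 6.64 (2.28-fold), and Alas2, its erythroid form, was at the floor in stem fractions, -1.21 in progenitors and 8.84 in Lin+ cells. With spike-in scaling 6 of the 12 remained past the rule, as did 229 of all 368 lower genes. Among ABC transporters of the Abcb group 3 of 7 were lower, Abcb6 (4.87-fold), Abcb10 and Abcb9.

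Granulocyte and monocyte genes were spread over several lists. Neutrophil granule genes gave 13 lower and 0 higher of 21 tested, among them S100a9 (2.35, 2.22, 6.54 and 10.94; 18.3-fold), the antimicrobial peptide precursor Camp (-0.96, -0.84, 3.24 and 10.80; 16.9-fold) and the siderophore binder Lcn2 (9.44-fold). Lactoferrin, Ltf, read -2.58, -2.59, -1.52 and 9.74, so it passed by 2.09-fold on the progenitor array while Lin+ cells stood far above. Granulocyte-monocyte progenitor genes gave 8 lower of 21, led by Cebpe, neutrophil elastase Elane (1.16, 4.12, 8.73 and 7.51; 10.5-fold) and the immunoglobulin receptor Fcgr3 (9.67-fold). Mpo, myeloperoxidase, did not pass, with 6.70, 10.12, 11.58 and 10.15, because ST-HSC equalled Lin+ cells. Monocyte genes gave 7 lower of 16, with the lipopolysaccharide co-receptor Cd14 at -0.81, -0.0024, 3.39 and 5.33 (10.5-fold) and the adhesion protein Vcam1 14.3-fold lower.

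Basophil, mast cell and eosinophil genes had the largest share of any list, 12 lower of 18 tested. The neutrophil list's summed signal was 81.1, 105, 485 and 11164 from LT-HSC to Lin+, and that of the list just described 56.5, 31.6, 298 and 2935. Lymphocyte lists gave 1 lower of 12 B cell genes (Vpreb3, 8.33%) and 1 of 16 T and NK cell genes (Cd8a, 6.25%). MHC class II genes gave 0 of 8. Of all tested genes 3.09% were lower, and counts this small cannot be set apart from that share. All 30 B cell genes on the array were detected in Lin+ cells but only 10 in progenitors, so most could not lie above both stem arrays on both later arrays. Megakaryocyte genes gave 1 higher of 22, Rgs18 (3.51, 3.36, 2.11 and 2.01), and platelet factor Pf4 read 6.30, 2.50, 7.92 and 1.68 without order by side.

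**Figure D3:**
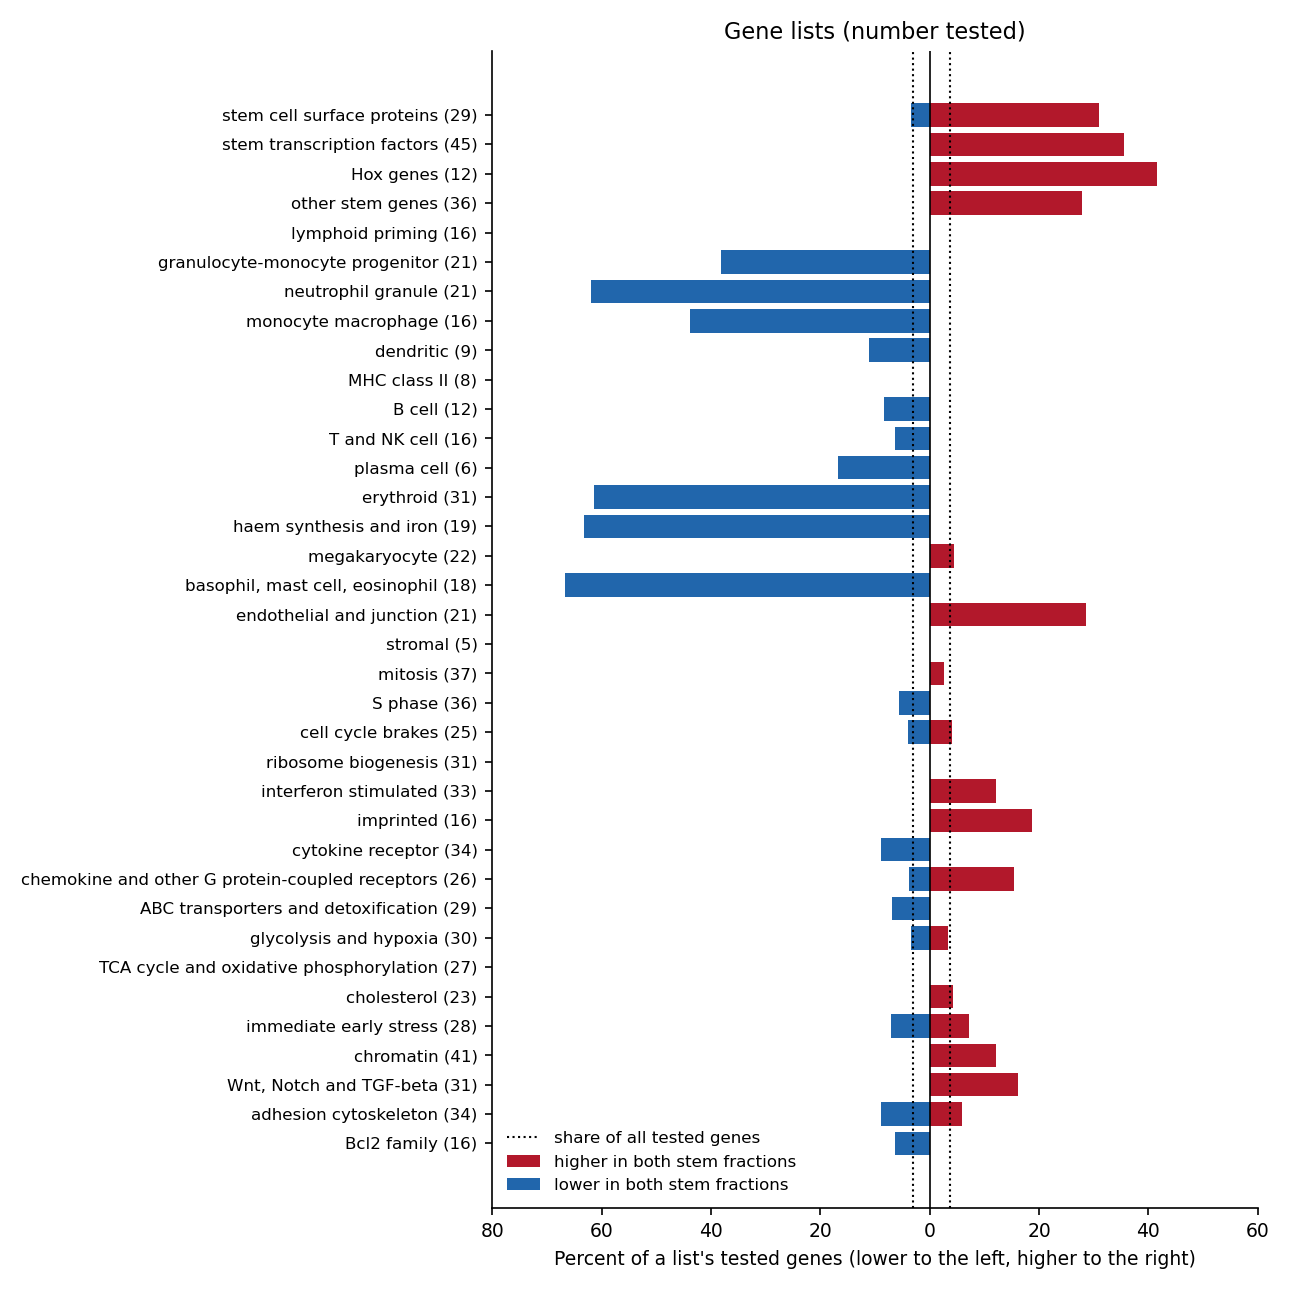
Percent of the tested genes of each of the 36 lists that were higher (red, to the right) or lower (blue, to the left) in both stem fractions, with the number tested in parentheses and dotted lines at the share of all tested genes (3.79% and 3.09%). Stem cell and Hox lists extend to the right, up to 41.7%, and the red cell and granule lists to the left, up to 66.7%.

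The lists together held 962 genes on the array, 778 of them tested, and 152 of the 820 members, 66 higher and 86 lower. The other 668 members were on no list. Families by shared name, with at least 5 genes tested, were ranked by their share of members, and those named here head the ranking. Shares above the 3.79% higher and 3.09% lower of all tested genes thus follow from the choice. Higher families were the Hoxa genes (4 of 8), the Gimap GTPases of lymphocytes (3 of 6) and Smad (3 of 7, Smad1 and Smad5 with a disagreeing probe). Bex (2 of 5) and the guanylate-binding Gbp genes (2 of 6) followed, and all of these had 0 lower. Paqr, a family of progestin and adiponectin receptors, was split: Paqr5 and Paqr8 were higher (4.63-fold and at least 2.49-fold) and Paqr4 and Paqr9 lower (2.87-fold and at least 14-fold). Lower families were led by Abcb, the Prss proteases (Prss16, Prss34 and Prss57, 3 of 9), Tnfaip, the claudins and Ly6c1 with Ly86.

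Some relatives lay on opposite sides, an observation made after the values were seen. The peptidoglycan-binding Pglyrp1 of neutrophils was 4.52-fold lower, with Pglyrp2 higher. Wfdc2 and Wfdc18 were higher by 3.56-fold and 5.88-fold, with Wfdc21 lower. Among monocarboxylate transporters Slc16a9 (1.57, -1.0 and at the floor in both later fractions) and Slc16a11 were higher and Slc16a3, Slc16a8 and Slc16a10 lower. Collagen genes gave Col4a1 and Col4a2, a basement membrane pair (at least 4.51-fold and 6.58-fold), and Col16a1 as higher and Col5a1 as lower.

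Zinc finger genes named Zfp were also singled out after their values were seen. Of 286 tested, 23 (8.04%) were higher and 0 lower, against 3.79% and 3.09% of all tested genes. The median difference between side means was 0.63, against 0.04 over all tested genes. Zfp867 (-0.62 and -0.85 in the stem fractions, at the floor later) had a gap of at least 4.04-fold, Zfp933 (-0.17, -0.09, -2.54 and -2.04) of 3.67-fold and Zfp260 (3.13, 3.72, 1.69 and 1.77) of 2.57-fold. Of the 23, 13 were dim on a later array, and among the 225 detected on all 4 arrays 10 (4.44%) were higher, against 2.71% of all such genes. The share kept above that of all genes under each scaling, and with normexp background correction it did not: 4 of 286 (1.40%) were higher, against 1.97% of all genes.

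Chromosome X gave 31 higher and 7 lower genes of 400 tested. Its 7.75% higher compared with 2.33% to 4.75% on the 19 other chromosomes, and its 1.75% lower with 1.69% to 4.52%. Among the 331 X genes detected on all 4 arrays 16 (4.83%) were higher, against 2.71% of all such genes. A block of neighbouring genes accounted for part of it: Gprasp1 (3.59, 3.06, 1.02 and 0.34; 4.14-fold), Gprasp2, Arxes2 and Bex2 follow one another among tested genes. Bex1, Tceal1, Tceal5 and Armcx1 were further higher genes of this chromosome. Maged1 (3.65, 2.41, 1.05 and -1.19), Itm2a (2.90, 1.78, -0.07 and -0.29) and the septin Septin6 passed too. Under the other settings that kept all 4 arrays and the 2-fold rule the X share ranged from 3.75% with normexp to 12.25% with spike-in scaling, above the share of all genes each time. Zfp, X and their settings were looked at after the values were seen.

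**Figure D4:**
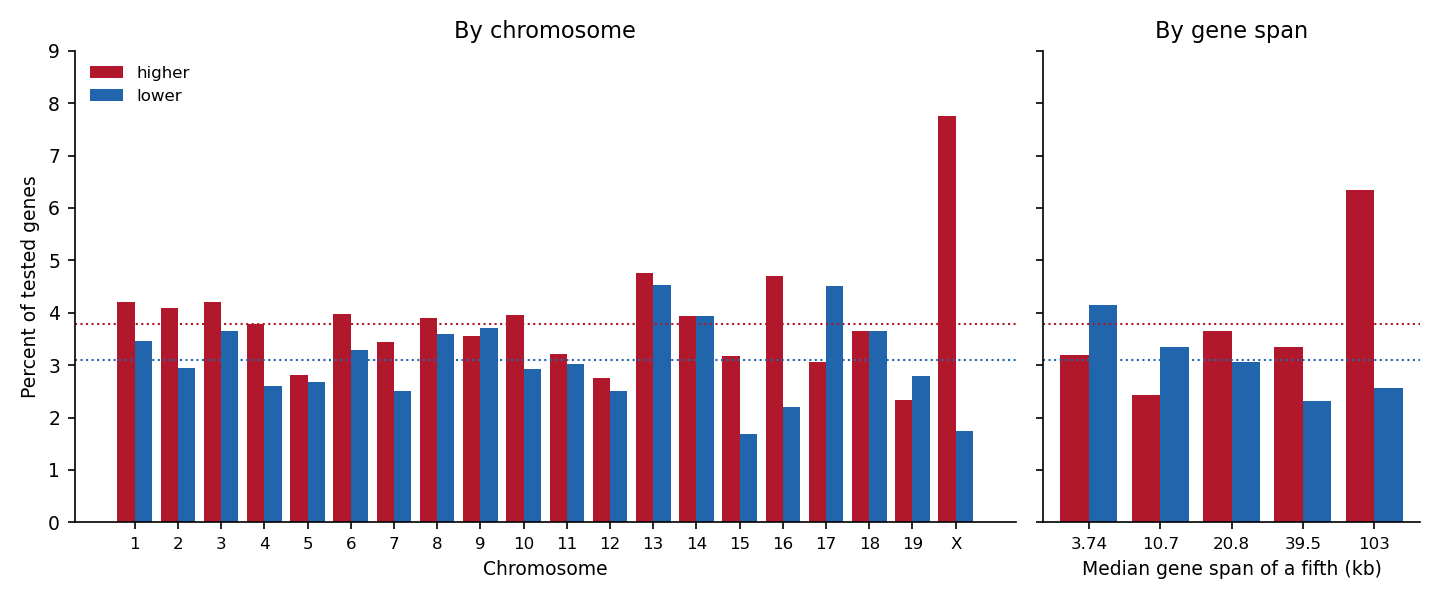
Percent of tested genes higher (red) and lower (blue) in both stem fractions, by chromosome (left) and in 5 groups of equal size by gene span (right, labelled with the group's median span in kb), with dotted lines at 3.79% and 3.09% for all tested genes. Chromosome X stands at 7.75% higher and the group of longest genes at 6.33%.

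Higher members were longer genes, with a median span of 29.5 kb against 20.8 kb for all tested and 15.8 kb for lower members. The group of longest genes, with a median of 103 kb, held 6.33% higher and 2.56% lower, and the group of shortest, at 3.74 kb, held 3.19% and 4.15%. Median difference between the sides rose with it from -0.08 to 0.18. When every array was set to the same median within span groups, 435 higher and 368 lower genes passed, including 354 and 319 of the members.

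Within each side, members differed in evenness. Of the higher genes, 336 were within 2-fold between LT-HSC and ST-HSC, 109 were at least 2-fold higher in LT-HSC and 7 in ST-HSC. Progenitors exceeded Lin+ cells by 2-fold for 166 and the reverse held for 9. The 4 arrays followed the order LT-HSC, ST-HSC, progenitor, Lin+ for 283 of the 452. The floor is higher in progenitors than in Lin+ cells and sets part of that order, and of the 288 detected on all 4 arrays 166 followed it. Genes far higher in LT-HSC included D630039A03Rik (3.23 and -0.61), Gm13889 (2.34 and -0.97), Hid1 (3.55 and 0.36) and Raver2 (1.96 and -1.26). The few that favoured ST-HSC were led by Ddx4, a germ cell helicase (0.07 and 1.41), Slc18a1, Clnk (0.74 and 2.0) and Hmga2. Mdga1 (3.42, 3.42, 2.40 and -2.55), Muc13 (7.43, 7.28, 6.09 and 1.87), Mdfi and Hnf4a dropped further from progenitors to Lin+ cells than from ST-HSC to progenitors.

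Among lower genes Lin+ cells exceeded progenitors by 2-fold for 187 of 368, and progenitors exceeded Lin+ cells for 22. Between the stem arrays 261 were within 2-fold, 60 favoured ST-HSC by 2-fold or more and 47 favoured LT-HSC. The rising order from LT-HSC to Lin+ held for 130 of the 368, and for 106 of the 224 detected on all 4 arrays. Ltf, Ngp, Alas2 and the palmitoyltransferase family gene Zdhhc22 (-2.65, -2.58, -1.11 and 8.67) were almost wholly Lin+ genes. Sphk1, a sphingosine kinase (1.95, -2.37, 6.43 and 4.56), and Hpn, a serine protease (-0.06, -1.53, 3.84 and 0.95), peaked in progenitors. Some were lower in LT-HSC than in ST-HSC: the transglutaminase F13a1 (-1.96, 4.50, 5.96 and 6.07), Slpi, a protease inhibitor (0.02, 4.34, 7.57 and 8.01), Igsf6 and Mcpt8. Others were lower in ST-HSC, namely Tspo2 (2.90, -0.98, 5.70 and 7.0), Aqp1, a water channel of red cells (4.97, 1.18, 7.21 and 8.09), Ces2g and Sphk1. For both kinds the gap was set by the nearer stem fraction.

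Members within 2-fold on both sides numbered 218 higher and 116 lower, of which 150 and 72 were detected on all 4 arrays. The largest gaps among the 218 and 116 were those of Ifi44, Hdgfl3, Cfc1, Clic5, Itih5 and Mpped2 as higher, and Pdia2 (at least 33.3-fold), Trem2, a myeloid lipid receptor (16.8-fold), Chst13, Celsr3, Slc25a21 and C5ar2 as lower. Trem2 read at the floor, -2.27, 1.80 and 2.49, and Chst13 at the floor in both stem fractions and at 0.91 and 0.94 later. Hdgfl3, Cfc1, Clic5, Mpped2, Pdia2, Chst13, Celsr3 and Slc25a21 were dim on both arrays of their low side, so evenness there is set by the floor and was not measured. Among the genes named here, only Itih5 was detected on every array.

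**Figure D5:**
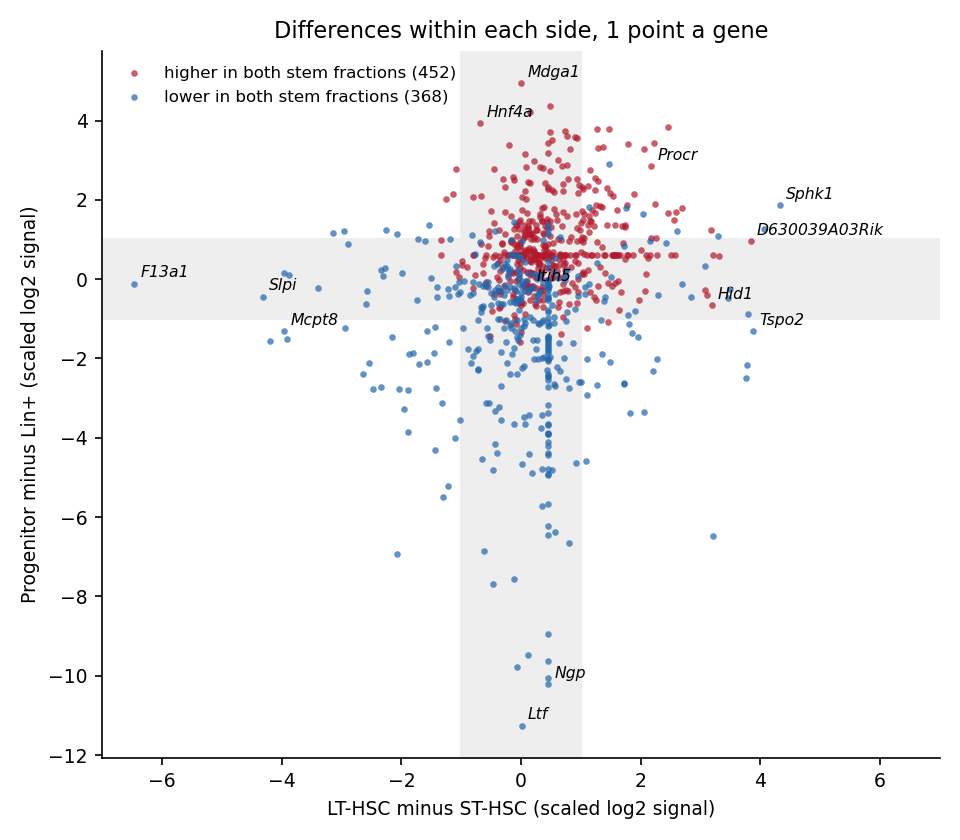
Difference between LT-HSC and ST-HSC (x) and between progenitors and Lin+ cells (y) in scaled log2 signal, 1 point a member; grey bands span less than 2-fold and straight rows or columns of points are genes at the background floor on both arrays. Many points lie inside the bands; red points outside them lie mostly to the right or above, and 187 blue points lie below the horizontal band, down to Ltf.

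With tested genes placed in RefSeq order, 55 of 452 higher genes (12.2%) had another higher gene beside them and 51 of 368 lower genes (13.9%) another lower one. Of all 11921 tested genes, 7.34% had a higher and 6.06% a lower gene beside them. Runs of 3 or more higher genes were Rgs1, Rgs18 and Pla2g4a on chromosome 1, the cysteine protease inhibitors Ctla2b and Ctla2a with 4930486L24Rik on chromosome 13, Gm5796, Gm10406 and Gm5797 on chromosome 14, Cyp2j8, Cyp2j6 and Cyp2j9 on chromosome 4, Gimap6, Gimap1 and Gimap5 on chromosome 6, and the X block above. Lower runs were Fcgr2b, Fcgr4 and Fcgr3, the Ear genes, and Col5a1, Fcnb and Olfm1. Most of these runs are paralogues whose probes may share targets. Rgs1, Rgs18 and Pla2g4a are a mixed run, and Pla2g4a, a phospholipase, read 3.26, 3.14, 1.95 and 1.2.

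Promoters were in the RefSeq table for 363 of the 452 higher genes (80.3%). Among these 54.3% had an observed to expected CpG ratio of at least 0.60, against 70.3% of the 9588 tested genes with a promoter and 36.5% of the 27025 in the table. Lower genes reached only 287 of 368 (78.0%), under the 80% set for such a comparison, so the check was void for them and no shares are given. On both strands, the ETS letters CCGGAAG stood in 6.89% of higher promoters, 18.3% of tested and 9.12% of all, and the interferon response letters GAAACTGAA in 1.65%, 0.55% and 0.63%. The next shares are given in the order higher, tested and all. The RUNX letters TGTGGTT stood in 5.23%, 3.77% and 5.37% of these promoters. The MEIS letters TGACAG stood in 16.8%, 17% and 19.3%. For the erythroid factor letters AGATAA the shares were 6.61%, 6.90% and 11.4%, lower in tested genes than in the whole table. AP-1 letters, spelled above for Procr, stood in 4.41%, 3.68% and 5.17%, and the E-box found there in 16.3%, 14.5% and 16.1%. The MYB letters of the Hba-a2 window stood in 10.2%, 10.6% and 13.6%, and the NF-Y box of that window in 34.7%, 39% and 37.9%. The C/EBP letters TTGCGCAA were searched too. So were the Klf1 box letters CCACACC, the second E-box form CACGTG of the Myc family and the core promoter letters TATAAA. The PAR bZIP letters TTACGTAA, the kind Hlf is known to bind, stood in 0 of 363 higher promoters, 0.16% of tested and 0.11% of all, too rare for a count in so few promoters to show a difference. A match of letters is a description of the window and no binding site.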

How the data were processed

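RNA of 4 sorted fractions was measured in a single colour (Cy3), with 1 Agilent array for each and all arrays on 1 slide. Per the file headers, the deposited spot intensity values came from Agilent Feature Extraction 10.7.1.1, the version that the submitters' processing notes also name, with background subtracted and spatial trend corrected within each array and no scaling between arrays. A deposited table of the whole series holds a ratio per probe, which equalled the processed signal over 1 constant per array within 1%, with column medians of 0.0619, 0.0630, 0.0704 and 0.0738. It served as an alternative. Its number of unmapped columns was 0.

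Control and outlier spots were left out, spots of a probe were averaged on the log2 scale, and each array's 75th percentile over non-control probes was subtracted. Flags of signal well above background were those deposited by the authors. No spot was saturated. The array design follows mm9. Of 55678 probes, 26762 (48.1%) were named by accession through the RefSeq table of GRCm38.p6, and a gene took the probe with the highest mean level over the 4 arrays.

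Gaps, floors and bounds were computed with Python 3.11.15, and the alternatives with limma 3.58.1 in R 4.3.3. Both steps were tested on simulated data. The members and the 36 gene lists were chosen with earlier results of these data known. Genes named are both markers and the sorting genes, the 10 largest measured gaps and 6 largest with a dim array each way (without genes whose probes disagreed), up to 4 members and 2 others of each list, those nearest the 2-fold limit, the most even and most uneven members, and families by name. Others were chosen after their values were seen, and the text prints only some of the genes allowed. With 1 array a fraction, the number of arrays limits the precision. Some genes of the lists are counted but not reported here by name.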

Additional observations from a re-analysis of the deposited data

How the results depend on the processing

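The 2-fold rule gave 452 higher and 368 lower genes. Spike-in scaling gave 865 and 236, a 1.5-fold rule 948 and 721, a 4-fold rule 83 and 138, and the requirement that all 4 arrays be well above background 288 and 224. Normexp with an offset of 50, chosen after seeing the data and run on median spot signals because no mean signal column was used here, gave 235 and 223; the planned run on mean signals was not run. With limma on 2 arrays a side, 0 and 0 genes passed an adjusted p of 0.05 (761 and 526 at an unadjusted p under 0.05; smallest adjusted p 0.267). Leaving out each array in turn gave 697 to 2110 higher and 560 to 1621 lower genes, because fewer arrays make the rule easier to meet. Scaling over probes detected everywhere (608 and 299), the median (612 and 286), quantiles (516 and 318), the authors' value table (454 and 368), no background filter (652 and 517), the mean of a gene's probes (380 and 334) and centring by gene span (435 and 368) stayed within 1.5 times of both counts. The median difference over tested genes was 0.04 in the main setting, 0.13 over probes detected everywhere, 0.24 with median scaling, 0.14 with quantiles and 0.26 with spike-ins, so higher genes gain and lower genes lose there. Over 4 scalings 423 higher and 217 lower genes kept their call, and 215 members kept it under all 10 settings that hold 4 arrays and 2-fold. For 161 named members, 2576 values under other settings gave 2299 past the rule, 277 below it and 0 reversed. Part of the 2299 was fixed in advance. A member could not fail the 1.5-fold rule, the run without a background filter or the runs that left out an array. This tally is therefore no measure of how stable the calls are. No paired analysis was possible because every sample is labelled replicate 1 and each fraction has a single array. Genes dim on a later array rest on the floor, and their folds are limits set by signal over background.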

Other observations

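Probes that could not be named through RefSeq held further members. Of 16193 probes identified by a genomic interval of build mm9, 3453 were measurable, and 85 were higher and 69 lower in both stem fractions (2.46% and 2.0%). Joined where their intervals overlap in the same orientation, they formed 1606 loci, 34 of them with a higher and 50 with a lower probe. At chr10:83181374-83249918, in forward orientation, 7 of 9 probes were higher, with probe medians of 1.30 (LT-HSC), 1.38 (ST-HSC), -1.37 (progenitors) and -3.07 (Lin+). At chr16:43623175-43642715, also forward, 7 of 11 were higher, with medians of 0.37, 0.73, -2.10 and -1.55 in that order. At chr6:31017987-31293337, on the same orientation, 5 of 10 probes were higher, with medians of 0.14, -0.79, -2.86 and -3.47. In the other direction all 5 probes at chr6:40693617-40720167 were lower, with medians at the array floors of -2.94 and -3.39 in LT-HSC and ST-HSC against 0.56 and 1.2 on the later arrays and a median gap of 3.50. Probes of a locus overlap in position and are not independent, and no annotation of mm9 was used here to say what the loci encode. The loci were picked after their values were seen.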
